A study of Mus musculus with 6 samples.

Results

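The BCL2 family sets whether a cell commits to mitochondrial apoptosis, and its transcripts were followed here in mouse blood progenitors sorted by a fluorescent marker of forced EVI1 expression. The 10 genes considered were Bcl2, Bcl2l1, Mcl1, Bcl2l11, Bax, Bak1, Bid, Bik, Bmf and Pmaip1. Members were the probe sets that the platform annotation assigns to exactly 1 of these symbols, which gave 32 of 45037 probe sets and 9 of 18192 genes. Expression of Bax is not analysed here. Where a gene had several probe sets, the lead probe set was the one with the highest mean over the 6 arrays.

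Lineage-negative (Lin-) haematopoietic progenitors, which lack the surface markers of mature blood cells, came from Rosa26rtTA mice of background strain C57BL/6J, and each sample was hybridised to 1 Affymetrix expression array. The EGFP-positive group (3 arrays) was made of cells that had taken up the vector pRRL.TET.EVI1.IRES.EGFP, in which a doxycycline-responsive promoter drives EVI1 and EGFP from 1 transcript. The EGFP-negative group (3 arrays) carried the same Rosa26rtTA allele. Its source label reads untransduced, whereas the design text describes a sort of negative or low EGFP cells after transduction, and the description of the EGFP-positive samples also says untransduced, so the titles were followed. Cells were grown with murine stem cell factor (50 ng/ml), murine interleukin-3 (20 ng/ml), human Flt3 ligand (50 ng/ml) and human interleukin-11 (50 ng/ml). The day after transduction the cells received doxycycline (1 µg/ml), and sorting followed 20 hours later. The labels do not state whether replicates are separate cultures or mice, and p-values therefore reflect only the variation among these 6 samples, possibly technical. No empty vector carrying EGFP alone was among the samples used here, so EVI1, transduction and EGFP level cannot be told apart.

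BCL2 family proteins meet at the outer mitochondrial membrane. Anti-apoptotic members (BCL2, BCL-XL from Bcl2l1, MCL1) hold the pore formers BAX and BAK in check, and BH3-only members (BIM from Bcl2l11, BID, BIK, BMF, NOXA from Pmaip1) bind the anti-apoptotic members or activate the pore formers. Once the pore opens, cytochrome c leaves the mitochondrion and caspases are activated. In blood, MCL1 is needed for the survival of stem cells and progenitors, BCL2 for that of mature lymphocytes and BCL-XL for that of maturing red cells and platelets.

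The promoters of the 3 anti-apoptotic genes are shown because, of these, Bcl2 fell, Mcl1 rose and Bcl2l1 did not pass the test. Each line is a window of 300 bases, from 250 before to 50 after a RefSeq transcript start in GRCm38.p6, written along the strand of the gene. Capitals mark the motif GATAA or the motif CCGGAAG on either strand. The Bcl2 window is chr1:106714241-106714540 (minus strand), the Bcl2l1 window, 1 of 3, is chr2:152828440-152828739 (minus strand) and the Mcl1 window is chr3:95658471-95658770 (plus strand). This Bcl2l1 window was chosen from the 3 because it alone holds a searched motif before the start.
Bcl2: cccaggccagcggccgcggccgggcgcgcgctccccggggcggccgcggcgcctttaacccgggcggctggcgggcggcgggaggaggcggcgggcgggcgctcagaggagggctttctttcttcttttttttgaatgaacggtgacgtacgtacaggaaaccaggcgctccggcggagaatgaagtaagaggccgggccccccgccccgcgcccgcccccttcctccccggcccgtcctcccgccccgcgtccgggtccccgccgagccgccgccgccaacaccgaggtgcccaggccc
Bcl2l1: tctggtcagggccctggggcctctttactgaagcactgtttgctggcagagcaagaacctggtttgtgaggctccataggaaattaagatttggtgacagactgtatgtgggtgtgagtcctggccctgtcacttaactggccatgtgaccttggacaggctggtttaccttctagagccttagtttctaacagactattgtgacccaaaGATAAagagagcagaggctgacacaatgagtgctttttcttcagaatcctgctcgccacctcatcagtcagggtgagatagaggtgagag
Mcl1: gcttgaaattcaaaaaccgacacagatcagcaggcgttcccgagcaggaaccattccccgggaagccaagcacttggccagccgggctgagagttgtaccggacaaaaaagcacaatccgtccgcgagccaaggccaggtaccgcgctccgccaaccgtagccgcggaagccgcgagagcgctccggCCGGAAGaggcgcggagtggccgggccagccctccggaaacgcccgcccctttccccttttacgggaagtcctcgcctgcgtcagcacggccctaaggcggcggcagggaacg
The Bcl2 window was 76% G and C, the Mcl1 window 65.7% and this Bcl2l1 window 49.3%, beside a median of 52.7% over all 32851 windows. The Bcl2l1 windows not shown were 55.7% and 52.3%. GATAA, the core bound by GATA factors, began at position -40 in the Bcl2l1 window and stood in neither the Bcl2 nor the Mcl1 window. The Bcl2l1 window was chosen for holding it, so this contrast is not a result. Of all windows 25.4% held GATAA on some strand. CCGGAAG, a core bound by ETS factors, began at position -63 in the Mcl1 window and was found in 8.86% of all windows. Any link between the motifs of these 3 windows and the direction of change was not tested. ACAAGATAA, part of the longer motif of the first zinc finger domain of EVI1 and itself holding GATAA, and GAAGATGAG, the motif of its second zinc finger domain, were in 0.262% and 0.399% of all windows. Neither was in any of the 13 windows matched by symbol to 8 of the 10 genes, which says only that these letters are not in those windows. Among the other 10 windows, CCGGAAG was in 1 of Bcl2l1 (position 35) and 1 of Bcl2l11 (-105), GATAA in none, and the E-box CACGTG, present in 7.15% of all windows, in that of Bax alone.

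Values below are log2 expression values, in which a difference of 1 is 2-fold, and differences are EGFP-positive minus EGFP-negative. A probe set passed when its Benjamini-Hochberg adjusted p in limma was under 0.05. At gene level 33.2% of 18192 genes passed, 16% higher and 17.2% lower. When only the 9096 genes above the median signal were fitted, 59.4% passed, so shares set beside 33.2% also depend on signal level. Pearson's r between arrays was 0.995 within the EGFP-negative group, 0.989 within the EGFP-positive group and 0.968 to 0.969 between groups. The log2 excess of 3' over 5' signal, which reflects RNA integrity and amplification, was larger in the EGFP-positive group, at 0.80 ± 0.05 (SD, n = 3) and then 1.00 ± 0.03 for Actb, and 0.82 ± 0.02 and then 1.06 ± 0.04 for Gapdh. The part of this shift in the results below was not tested.

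Markers of several blood cell types also differed between the groups. All 9 progenitor markers read above the highest bacterial poly-A control probe set (3.61). These poly-A controls are called the bacterial controls below. Among the 9 were Ptprc, the pan-leukocyte CD45 gene (10.74 and 10.84), and Gata2 (12.89 and 12.73). In EGFP-positive cells 5 of the 9, such as Cd34 (-2.75), fell and 1, Spi1 (0.51), rose. Of 13 erythroid markers 10 rose and 1, Alas2 (-1.86), fell. Among the rises, Rhag had both group means under the bacterial controls. The summed level of the erythroid markers on the log2 scale went from 13.14 to 13.20 over the EGFP-negative arrays to 13.91 to 13.98 over the EGFP-positive ones. All 10 neutrophil markers fell (summed level 15.68 to 15.76 and 14.84 to 14.88), as did 7 of 8 mast cell and basophil markers (14 to 14.04 and 11.94 to 12.05). Of 11 lymphoid markers 3 fell and 1 rose (10.33 to 10.50 and 8.74 to 8.96), with the lymphoid genes Rag1, Rag2, Ebf1 and Pax5 under the bacterial controls by the means of both groups. Of 7 megakaryocyte markers 4 rose and 0 fell (10.68 to 10.80 and 11.85 to 12.01). Fewer cells of a type and less RNA per cell cannot be told apart in these sorted fractions, and the part of cell mix in the results below was not tested.

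Of the 9 measured family members, 8 passed against 33.2% of all genes, 4 higher (Bik, Bmf, Mcl1 and Bak1) and 4 lower (Bcl2, Pmaip1, Bid and Bcl2l11). All 9 lay above the median signal of genes (percentiles 52.3 to 98.1). Of genes above that median, 59.4% passed when fitted alone. Both directions held genes of opposing function. The median difference was -0.20 and the median size of a difference 0.71, beside 0.02 and 0.27 over all genes. Differences of at least 2-fold that passed were found for 4 members, Bcl2, Pmaip1, Bid and Bik, beside 12.2% of all genes. With the most variable probe set in place of the brightest, 5 of the 9 passed, 2 higher and 3 lower, beside 30.2% of all genes. When each probe set was counted, 19 of the 32 passed (24.1% of all 45037 did), 11 as higher (11.6%) and 8 as lower (12.6%). Probe sets of the same gene are not separate observations, and Mcl1 gave 6 of those that passed, Bcl2 5 and Bik 3. The shares over all probe sets were not matched for signal level. The groups did not overlap at the lead probe set of any of the 9 members, as in 48.2% of all genes, nor at 27 of the 32 probe sets, as in 41.2% of all probe sets.

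**Figure D1:**
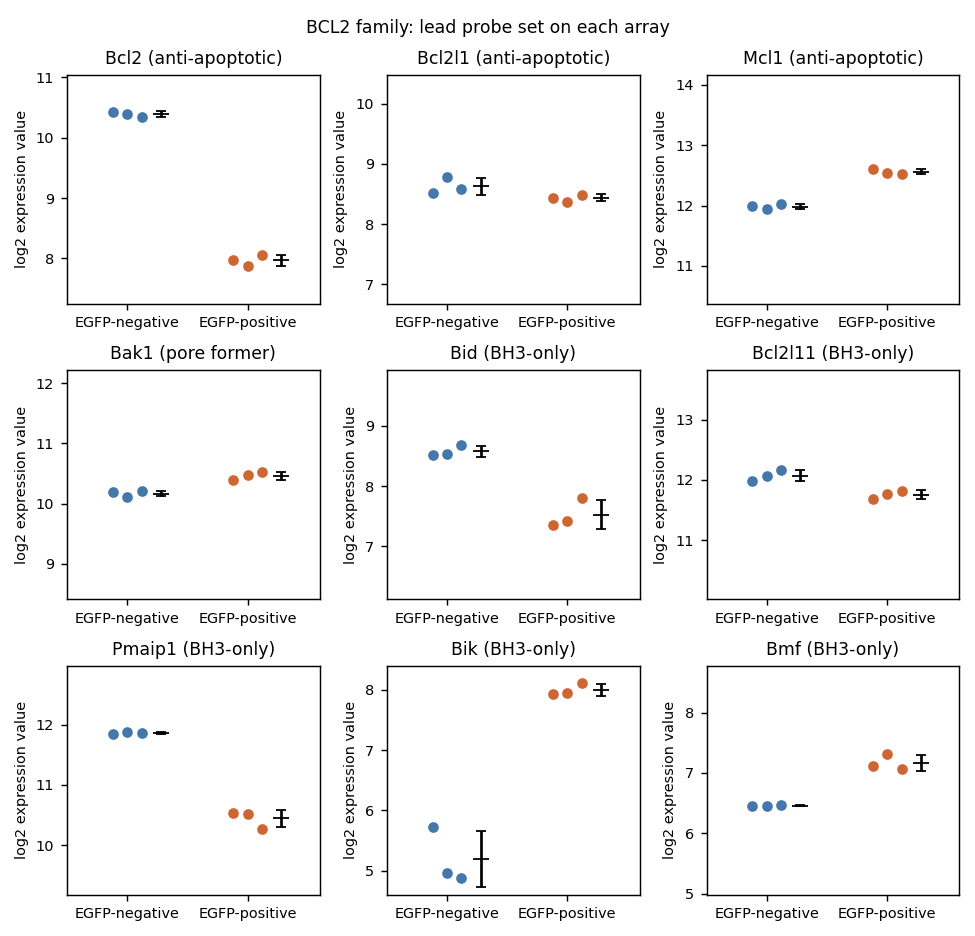
Log2 expression values of the lead probe set of each measured member on each of the 3 EGFP-negative (blue) and 3 EGFP-positive (orange) arrays, with the group mean ± SD in black and a y axis of equal span in every panel. The groups do not overlap in any of the 9 panels, and the differences between group means are largest in size for Bik (2.81) and Bcl2 (-2.42).

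Bcl2, the anti-apoptotic gene after which the family is named, was lower in EGFP-positive cells at every probe set. Its lead probe set (1437122_at) read 10.43, 10.40 and 10.34 on the EGFP-negative arrays and 7.98, 7.87 and 8.06 on the EGFP-positive arrays. Every EGFP-positive array was far below every EGFP-negative one, and the fall was 5.36-fold (log2 difference -2.42, SE 0.09, adjusted p = 2.37e-05). The other 4 probe sets differed by -2.74 (1422938_at), -2.19 (1457687_at), -2.43 (1440770_at) and -2.99 (1443837_x_at), and all 5 passed over probe sets, with adjusted p from 4.27e-05 to 0.00101. Signal at the dimmest EGFP-positive array of these, 4.62, still lay above the bacterial controls, so none of these folds is a bound.

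Mcl1, whose short-lived product guards progenitors against apoptosis, moved the opposite way. The lead probe set of Mcl1 (1437527_x_at) read 11.99, 11.94 and 12.02 on the EGFP-negative arrays and 12.61, 12.54 and 12.53 on the EGFP-positive arrays. The groups did not overlap, and the rise was 1.49-fold (0.58, SE 0.08, adjusted p = 0.00205). All 6 Mcl1 probe sets passed as higher, with differences from 0.38 (1448503_at, adjusted p = 0.0397) to 0.75 (1416881_at, adjusted p = 0.00209). These probe sets share 1 transcript and are not replicates, and 3 of them are of the x type, which can bind related sequences. Probe set 1448503_at did not pass without EGFP-negative replicate 1 or 2 or without any 1 of the EGFP-positive arrays (adjusted p up to 0.13), and the gene-level call held in all 15 alternatives.

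Bcl2l1, which encodes BCL-XL, was the 1 measured member that did not pass. Its lead probe set (1426191_a_at) read 8.52, 8.79 and 8.58 on the EGFP-negative arrays and 8.44, 8.37 and 8.49 on the EGFP-positive arrays. The EGFP-positive arrays were slightly lower, with a difference of -0.20 and a 95% interval of -0.44 to 0.05 (adjusted p = 0.19). That interval leaves a larger fall than the estimate, or a small rise, possible. The next brightest, 1420888_at, read 8.29, 8.28 and 8.12 and then 8.53, 8.47 and 8.44, a difference of 0.25 that also missed the threshold (adjusted p = 0.12). The groups did not overlap at either probe set, but in opposite directions. Probe set 1420887_a_at differed by 0.15 with EGFP-positive replicate 1 alone raised (7.90, against 7.18 and 7.10), and its sign turned without that array (-0.10). The fourth, 1426050_at, lay under the bacterial controls on all arrays. With the mean of its probe sets the difference was 0.04 (adjusted p = 0.81) and with the most variable one 0.15 (0.66).

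Bak1, the pore former BAK, rose slightly. On its lead probe set, 1418991_at, it read 10.18, 10.11 and 10.20 on the EGFP-negative arrays and 10.39, 10.48 and 10.52 on the EGFP-positive arrays. The groups did not overlap, and the difference of 0.29 (SE 0.08, 1.23-fold) passed over genes (adjusted p = 0.0344) but not over probe sets (0.0645). The call was lost without any 1 EGFP-negative array and without EGFP-positive replicate 2 or 3 (adjusted p 0.073 to 0.12), with the most variable probe set (0.086) and with the mean of its probe sets (0.15, adjusted p = 0.20). Its other probe set, 1425716_s_at, showed a difference of 0.01 with overlapping groups.

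**Figure D2:**
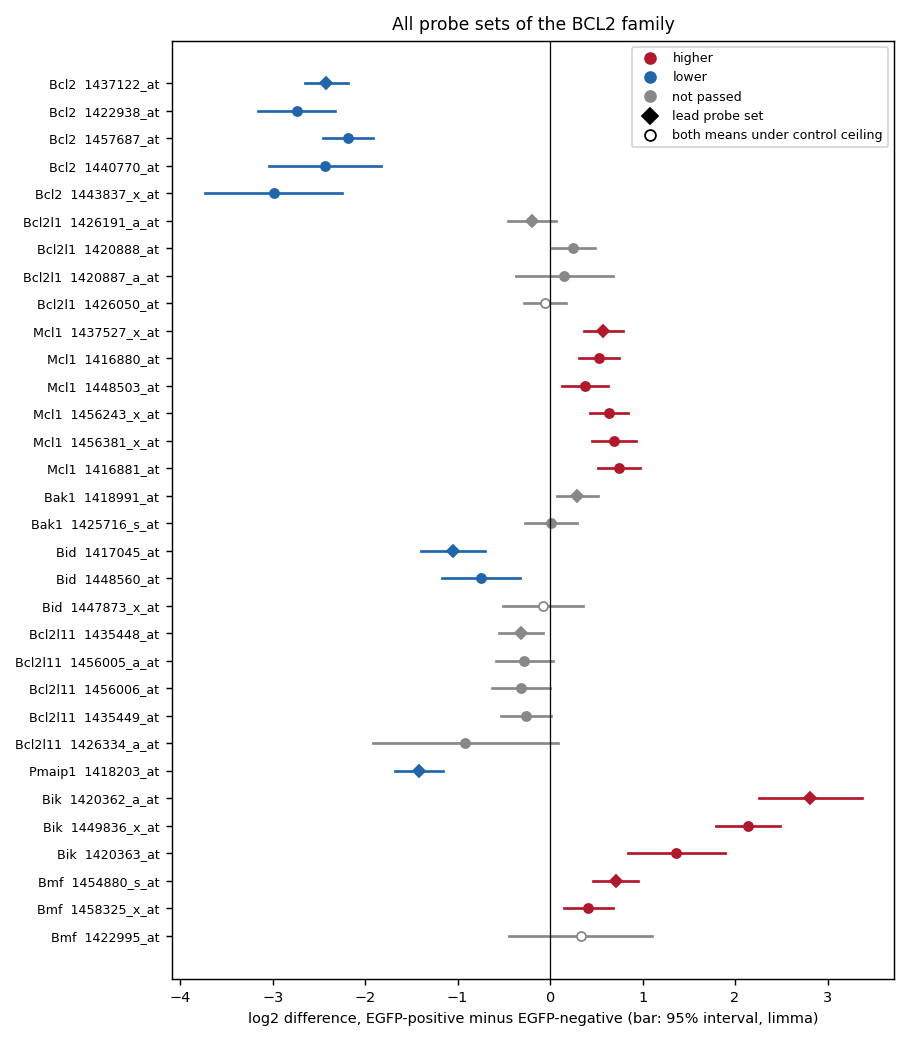
Log2 difference (x axis, EGFP-positive minus EGFP-negative) of all 32 probe sets with the 95% limma interval. Diamonds are lead probe sets, colours show the call over all probe sets, and open circles have both group means under the bacterial control ceiling. All 5 Bcl2 probe sets lie left of 0 and all 6 Mcl1 and 3 Bik probe sets right of it, whereas the 4 Bcl2l1 probe sets lie on both sides.

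Among the BH3-only genes, Pmaip1, Bid and Bcl2l11 were lower in EGFP-positive cells. Pmaip1 encodes NOXA, which binds MCL1, and its 1 probe set (1418203_at) read 11.84, 11.88 and 11.86 on the EGFP-negative arrays and 10.53, 10.52 and 10.27 on the EGFP-positive arrays. Every EGFP-positive array was lower, by 2.67-fold between the means (-1.42, SE 0.10, adjusted p = 0.000173).

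Bid encodes the protein through which caspase-8 of the death receptor pathway reaches mitochondria. Lead probe set 1417045_at read 8.52, 8.52 and 8.69 on the EGFP-negative arrays and 7.36, 7.43 and 7.80 on the EGFP-positive arrays. The groups did not overlap, and the fall was 2.07-fold (-1.05, SE 0.14, adjusted p = 0.00191). Probe set 1448560_at also fell (-0.75, adjusted p = 0.0248 over probe sets), a call lost without EGFP-negative replicate 1 or 2 or EGFP-positive replicate 2 or 3 (0.061 to 0.089). The third, 1447873_x_at, was under the bacterial controls in every array, and with the mean of all 3 the difference was -0.63 and still passed (0.00116).

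Bcl2l11 encodes BIM, a main mediator of apoptosis after cytokine withdrawal in blood cells. The brightest of its 5 probe sets, 1435448_at, read 11.98, 12.06 and 12.17 on the EGFP-negative arrays and 11.68, 11.76 and 11.82 on the EGFP-positive arrays. The groups did not overlap, with a difference of -0.31 (SE 0.09, 1.24-fold) that passed over genes (adjusted p = 0.0388) but not over probe sets (0.0669). All 5 probe sets had negative differences, from -0.92 to -0.26, and none of them passed over probe sets. The groups did not overlap at any of the 5, as in 41.2% of all probe sets, and probe sets of 1 gene are not replicates. The gene-level call was lost without any 1 of the 6 arrays (0.0502 to 0.11), with arrays shifted to the same median (0.055) and with the most variable probe set (-0.92, adjusted p = 0.15), where EGFP-positive replicate 2 (3.76) stood below replicates 1 and 3 (5.34 and 5.16).

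Bik and Bmf, the remaining BH3-only genes, were higher. Bik encodes a BH3-only protein of the endoplasmic reticulum, and its lead probe set (1420362_a_at) read 5.72, 4.96 and 4.89 on the EGFP-negative arrays and 7.94, 7.95 and 8.12 on the EGFP-positive arrays. The EGFP-positive arrays were all far above the others, by 7.02-fold between the means (2.81, SE 0.23, adjusted p = 0.000308). The other probe sets rose too, 1449836_x_at from 4.02 ± 0.24 to 6.16 ± 0.09 (2.14) and 1420363_at from 3.56 ± 0.42 to 4.92 ± 0.13. At the last, 2 of the 3 EGFP-negative arrays were under the bacterial controls, so it was at least 2.25-fold higher.

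Bmf encodes a BH3-only protein that binds the dynein light chain of the myosin V motor. Its lead probe set (1454880_s_at) read 6.45, 6.46 and 6.47 on the EGFP-negative arrays and 7.12, 7.31 and 7.07 on the EGFP-positive arrays. All EGFP-positive arrays were higher, by 1.63-fold between the means (0.71, SE 0.09, adjusted p = 0.00194). Probe set 1458325_x_at also passed (0.41, adjusted p = 0.0369), but not without any 1 of the 6 arrays (0.055 to 0.11) or with eBayes trend (0.087). The third, 1422995_at, had both group means under the bacterial controls, and when it stood for the gene as its most variable probe set, the difference was 0.33 (adjusted p = 0.50).

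**Figure D3:**
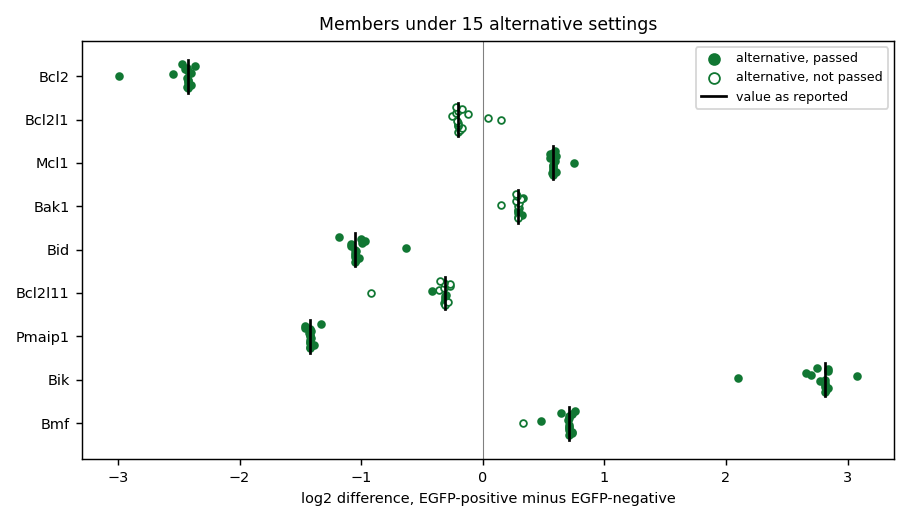
Log2 difference of each measured member (x axis) as reported (black bar) and under 15 alternative settings (circles, filled where the adjusted p was under 0.05). Bcl2, Mcl1, Bid, Pmaip1 and Bik passed in all 15, Bmf in 14, Bak1 in 7 and Bcl2l11 in 6, while Bcl2l1 passed in none and crossed 0 in 2.

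The 2 members with the largest differences were set beside all other genes by the root mean square distance between mean-centred values over the 6 arrays, which is set mostly by the size of the group difference. Among the 3 nearest to Bik were Naaa (distance 0.17, difference 3.00), a lysosomal amidase gene, and Fbxo2 (0.17, 2.89), a ubiquitin ligase subunit gene. For Bcl2 the nearest were Ccn3 (0.08, -2.32), a matricellular protein gene, Mcm2 (0.08, -2.31), a subunit of the replicative helicase, and F7 (0.09, -2.59), the gene of coagulation factor VII.

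Of 11 measured relatives of the family outside these members, 2 rose and 1 fell (27.3% called, beside 33.2% of all genes). Bbc3, which encodes the BH3-only protein PUMA, read 7.38, 7.72 and 7.45 on the EGFP-negative arrays and 8.16, 8.18 and 8.36 on the EGFP-positive arrays (0.72, adjusted p = 0.00510). All EGFP-positive arrays were higher, as they were for Bcl2l14 (0.92, adjusted p = 0.0110), while Bcl2l12 fell by 0.95 (adjusted p = 0.00286). Bcl2l2, the anti-apoptotic BCL-W gene, and Bad, a BH3-only gene, differed by 0.21 and 0.31 and did not pass (adjusted p = 0.19 and 0.0859).

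Downstream, 6 of 16 apoptosome, caspase and inhibitor genes fell and 1 rose (43.8% called, beside 33.2% of all genes). Cycs, the gene of cytochrome c, went from 11.14 ± 0.04 to 10.35 ± 0.05 (SD, n = 3; -0.79, adjusted p = 0.000596). Birc5, the gene of survivin, which also acts in mitosis, went from 11.89 ± 0.03 to 10.11 ± 0.18 (-1.78, adjusted p = 0.000112). Its relative Birc3 rose by 0.37 (adjusted p = 0.0332), a call lost without any 1 array except EGFP-positive replicate 2. The Birc3 call was also lost with the most variable probe set (0.34, adjusted p = 0.16). The other falls were Apaf1, which builds the apoptosome (-0.50), and the mitochondrial proteins' genes Diablo (-0.72), Aifm1 (-0.67) and Endog (-1.07). The Apaf1 call was lost without any 1 array except EGFP-positive replicate 2 (adjusted p up to 0.13). Further quantile normalization and arrays shifted to the same median also lost it (adjusted p = 0.051 and 0.053). The initiator gene Casp9 (0.10) and the voltage-dependent anion channel genes Vdac1, Vdac2 and Vdac3 (-0.08, -0.11 and -0.14) did not pass.

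In the death receptor pathway, 3 of 9 genes rose and 1 fell (44.4% called, beside 33.2% of all genes). The receptor genes Tnfrsf1a (0.79, adjusted p = 0.000792), Fas (0.67, adjusted p = 0.0108) and Tnfrsf10b (0.74, adjusted p = 0.0239, lost without EGFP-negative replicate 1 or 2 or EGFP-positive replicate 2 or 3) rose, and the ligand gene Tnfsf10, which encodes TRAIL, fell from 8.33 ± 0.15 to 6.75 ± 0.04 (-1.58, adjusted p = 0.000136; -1.04 with the mean of its probe sets). Casp8, which cuts BID, and its inhibitor gene Cflar differed by -0.01 and -0.09 and did not pass.

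Of 15 regulators known to act on family genes or proteins, 3 rose and 5 fell (53.3% called, beside 33.2% of all genes). Foxo1, a transcription factor restrained by AKT, rose by 1.17 (adjusted p = 0.000413) and the survival kinase gene Pim2 by 0.72 (adjusted p = 0.00730), and Stat5a, which carries cytokine signals, by 0.44. The Stat5a call was lost with the most variable probe set (0.85, adjusted p = 0.18) and with the mean of probe sets (0.64, adjusted p = 0.054). Myc fell from 10.47 ± 0.17 to 7.77 ± 0.28 (-2.70, adjusted p = 0.000118) and the stress response factor gene Atf4 by 0.84 (adjusted p = 0.000452), with E2f1, Ddit3 and Gfi1 also lower. The call of Ddit3 was lost with the most variable probe set (-1.09, adjusted p = 0.054) and that of Gfi1 without any 1 array except EGFP-positive replicate 1 (adjusted p up to 0.090). Foxo3 (0.11) and Mdm2 (0.11) did not pass. Among 10 genes of binding partners and protein turnover (20% called) 1 rose, Dynll2, the dynein light chain bound by BMF (0.41, adjusted p = 0.0139), and 1 fell, Ywhaz, whose product binds phosphorylated BAD (-0.28, adjusted p = 0.0299). Dynll2 lost its call without EGFP-negative replicate 2 or 3, with the most variable probe set (0.07, adjusted p = 0.85) and with the mean of probe sets (0.24, 0.19). Ywhaz lost its call without any 1 array, and its difference was -0.54 with the most variable probe set. The ligase gene Huwe1 and the deubiquitinase gene Usp9x, both of which act on MCL1 protein, differed by 0.12 and 0.16 and did not pass.

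**Figure D4:**
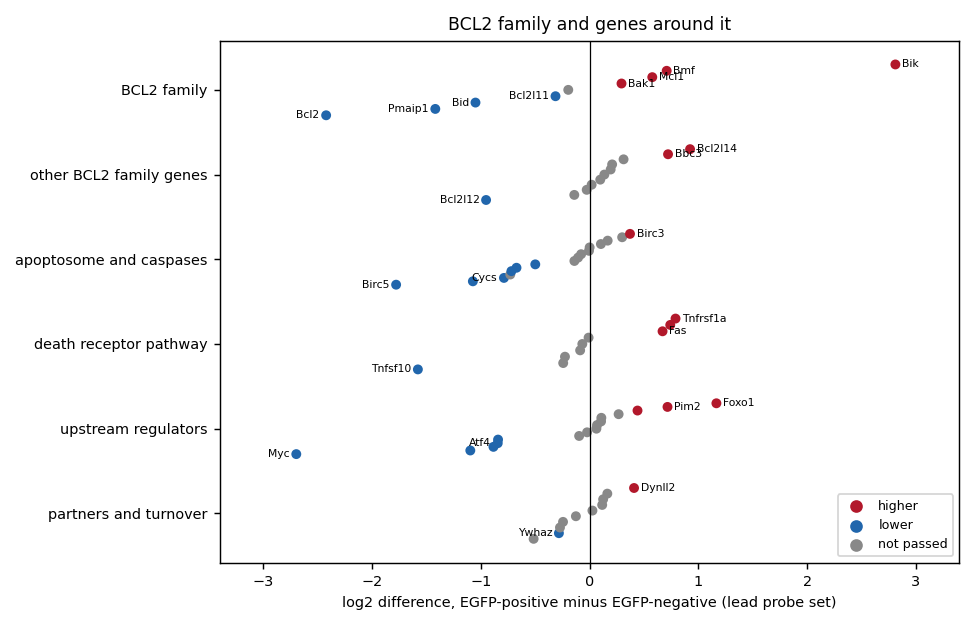
Log2 difference (x axis, lead probe set) of every measured gene of the BCL2 family and of 5 lists of genes around it, red where higher, blue where lower and grey where not passed. Bcl2 and Myc are the lowest points and Bik the highest, and each list has genes on both sides of 0.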

How the data were processed

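Gene expression was measured in 6 samples on 1 Affymetrix array each. Per the labels' protocols, total RNA was column-purified and amplified with a 3' in vitro transcription kit. The deposited table gives log2 values for each probe set, made by RMA per the submitters' processing notes (background correction, quantile normalization and probe summary). The sources used here give no version of it. Quantile normalization hides changes in total RNA per cell.

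Of 45101 probe sets 64 were controls. The 27 bacterial poly-A control probe sets reached 3.61, used as a background ceiling: dim arrays were raised to it for folds given as at least, and no fold is given where both means lay under it. GEO's platform annotation gave 1 gene for 34945 probe sets, several for 932 and none in the table used here for 9160. Symbols were compared with RefSeq GRCm38.p6 by Entrez identifier (34741 found, 0 changed). Promoter windows are RefSeq's. No filter was applied.

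Groups and replicate numbers came from the titles. A linear model was fitted (limma 3.58.1, R 4.3.3; lmFit and eBayes, 6 arrays, no covariate, two-sided) over 18192 genes by lead probe set and over 45037 probe sets, with Benjamini-Hochberg adjustment over each. The number of arrays limits the precision. The fit was tested on simulated data that kept each gene's spread (20 sets, 18192 genes, 200 changed): 13.9% of changes of 0.5 on the log2 scale were recovered, 58.4% of changes of 1 and 88.6% of changes of 2, and 4.45% of calls were false. In the real data 33.2% of genes passed, and the adjusted threshold depends on the share changed. These rates are therefore not the recovery in this comparison.

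The members and lists were chosen with earlier results of these data known. The text names every member, from each pathway list up to 2 rises and 2 falls with the smallest p, up to 2 markers a list, and the 3 genes nearest to each of the 2 members with the largest differences, of which 1 is not reported here. Others were named after their values were seen. Other settings tried were a replicate block, further scaling, brighter features only, eBayes options, array weights, other probe sets per gene and leaving out each array. Expression of listed genes with no probe set of their own, such as Bax, was not analysed here.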

Additional observations from a re-analysis of the deposited data

How the results depend on the processing

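Over 15 alternatives, the gene-level calls of Bcl2 (-2.99 to -2.37), Mcl1 (0.55 to 0.75), Bid (-1.18 to -0.63), Pmaip1 (-1.46 to -1.33) and Bik (2.10 to 3.08) held. The count of members that passed was 5 (2 higher) with the most variable probe set and 6 to 7 of 9 without each array in turn (3 to 4 higher, 3 lower), beside 24.4% to 31.1% of all genes. Over probe sets it was 16 to 18 of 32 without each array. The share of all probe sets that passed was 24.1% with all arrays and is not given here without each. Bcl2l1 turned positive with the most variable probe set (0.15) and with the mean of probe sets (0.04). Of uncalled probe sets, 1420887_a_at turned without EGFP-positive replicate 1 (range -0.10 to 0.30 without each array), 1425716_s_at without EGFP-negative replicate 3 or EGFP-positive replicate 1 (-0.07 to 0.09), and 1447873_x_at without EGFP-negative replicate 3 (-0.19 to 0.12). With eBayes trend, 37.6% of all genes passed. The counts were then 5 other family genes (2 lower), 2 higher among apoptosome and caspase genes and 5 partner and turnover genes (3 higher, 2 lower). With brighter genes only, 59.4% of the genes fitted passed. The counts were then 2 higher for apoptosome and caspases and 4 for partners and turnover (2 higher, 2 lower). With the mean of probe sets (32.7% of all genes) the count for partners and turnover was 1, with 0 higher. Without each array, apoptosome and caspase genes numbered 0 to 1 higher (5 to 7 in all), death receptor genes 1 to 2 lower (3 to 5 in all), partners and turnover 0 to 1 in all (0 to 1 higher, 0 lower), other family genes 3 to 4 and upstream regulators 7 to 8. The cause of these moves was not tested.

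With the replicate number as a block, 6 of 9 members passed (3 higher, 3 lower), 17 of 32 probe sets, 0 apoptosome and caspase genes higher and 1 partner and turnover gene (0 lower). The share of all probe sets that passed with the block is not given here either. The labels do not say that numbers mark a shared source, and deviations from group means correlated by -0.02 to 0.01 within the 3 same-numbered pairs. No pairing was seen, but with 3 arrays a group noise of single arrays could hide a shared source, so it is not excluded. Over all genes 26.9% passed with the block, and the adjusted p was then 0.094 for Bak1, 0.071 for Bcl2l11, 0.093 for Birc3 and 0.094 for Ywhaz at gene level, and 0.11 for the Mcl1 probe set 1448503_at and 0.080 for the Bmf probe set 1458325_x_at.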
